A study of Mus with 2 samples.

Results

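Genes of the hypoxia response and of glycolysis were described in 2 sections of CT26 tumors, a control and one treated with recombinant mouse IL-7 (rIL7). The 38 genes were taken by name, 16 glycolytic enzymes and 22 other targets of the hypoxia response, from the 32285 features of the tables. A gene had to have at least 20 unique molecular identifiers (UMIs, each marking 1 captured RNA molecule) over both sections, and all 38 passed, as did 14313 genes in all.

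CT26, a colon carcinoma line of BALB/c origin, had been injected under the skin of BALB/c mice aged 6 to 8 weeks. The rIL7 mouse received 10 µg of rIL7 into the peritoneum on days 11 and 13, the control mouse received PBS by label, and both tumors were collected on day 15. Visium was used, in which a frozen section lies on a grid of barcoded spots and each spot captures RNA from a small area with several cells. Each group was 1 section of 1 tumor, so no test between groups was possible, and every 95% interval below covers counting error only. Fewer cells of a kind and less RNA per cell cannot be told apart in such spots.

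When oxygen is short, the prolyl hydroxylases that mark hypoxia-inducible factor (HIF) for destruction lose activity, and HIF accumulates with its partner ARNT at target genes. These targets include glucose and lactate transporters, nearly every enzyme from hexokinase to lactate dehydrogenase, mitophagy receptors, vessel growth factors and enzymes of collagen maturation. In solid tumors the response is known from tissue far from perfused vessels and beside necrosis, although growth signals also drive glycolytic genes where oxygen is present.

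After a filter on spots, 2219 control spots and 1950 rIL7 spots were kept, with 22951678 and 25729233 UMIs and medians of 9623 and 12921.5 UMIs per spot. Levels are UMIs per 1000000 UMIs of the spots named (CPM). The CT26 markers Rpl39l and Baiap2l1 together held 1293 and 1043 CPM. Skeletal muscle genes were at 70.1 CPM in control and 7.03 CPM in rIL7 tissue, and without the 137 control spots that held at least 3 such UMIs the list medians given below were within their counting bounds. The 6 T cell genes were higher in rIL7 at 85.0 against 25.6 CPM, and the 5 neutrophil genes had 250.7 against 139.9 CPM with overlapping quadrants. S100a8 and S100a9 carried that sum (ratios 1.96 and 1.90), while Csf3r had a ratio of 1.23, Cxcr2 0.992 and Retnlg 0.580.

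The hypoxia targets were not spread evenly over either tumor. Every spot with at least 5000 UMIs was thinned to 5000 UMIs, which left 2090 control and 1901 rIL7 spots. The summed 22 targets then ran from 6 UMIs at the 10th percentile of spots to 21 at the 90th in control and from 6 to 28 in rIL7 tissue. The 16 enzymes ran from 42 to 86 UMIs and from 36 to 96 UMIs. Moran's I, which is near 0 for a random layout and nears 1 when neighbors are alike, was 0.470 and 0.614 for the targets and 0.517 and 0.649 for the enzymes.

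**Figure D1:**
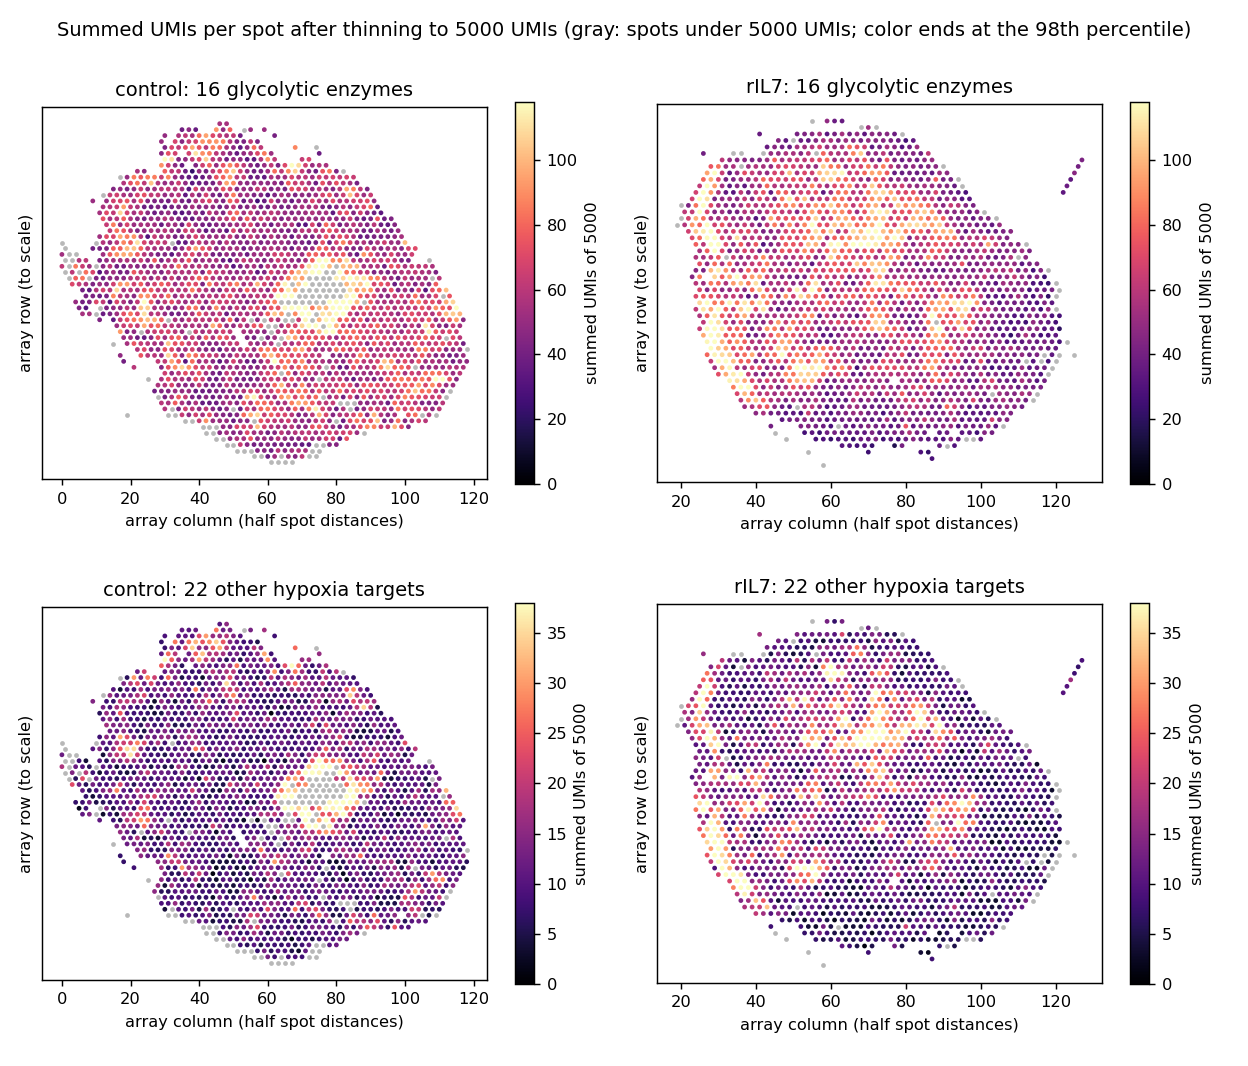
Maps of the summed UMIs of the 16 glycolytic enzymes (top) and of the 22 other hypoxia targets (bottom) in the control (left) and rIL7 (right) section, with each dot a spot thinned to 5000 UMIs and gray dots the kept spots under that depth. In the control section 1 bright area surrounds a gray patch near the center, and in the rIL7 section bright spots lie in several areas, one of them along a margin.

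The brightest area of the control section lay around a patch of spots with few UMIs. This patch was defined by depth and position alone, after the maps had been seen, as the largest connected set of kept spots under 5000 UMIs lying more than 2 grid steps inside the outline. It held 33 spots, 12 to 22 steps from the outline, with a median of 2839 UMIs and 1698 genes per spot. In the rIL7 section the largest such set held 2 spots. The summed targets were at 7882 CPM in the control patch, 6158 CPM at 1 to 2 steps from it, 3666 CPM at 3 to 4 steps, 2322 CPM at 5 to 7 steps and 2431 CPM at 8 steps or more. The enzymes followed the same order over the first 4 distances, with 22189, 21501, 14804 and 12079 CPM, and had 11774 CPM at 8 steps or more. Averaged over each distance, the levels were thus high within 4 steps of the patch. Smaller groups of high spots lay elsewhere in the control section. Among them was a group of 15 spots at 1 to 5 steps from the outline, with 0 of its spots within 4 steps of the patch.

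Ndrg1, a stress-induced gene long used as a hypoxia marker, showed the steepest profile among the well-counted members. It had 1363 CPM in the patch, 893.9 at 1 to 2 steps, 388.1 at 3 to 4, 137.8 at 5 to 7 and 123.7 at 8 or more. Between 1 to 2 steps and 8 steps or more this was 7.23-fold (95% interval 6.53 to 7.99). Slc2a1, the glucose transporter GLUT1, fell off from 919.3 CPM in the patch to 626.5, 280.5, 155.1 and 142.1 CPM, a 4.41-fold difference (3.92 to 4.95). Bnip3, a receptor that sends mitochondria to autophagy, had 739.6, 618.7, 354.8, 154.5 and 164.3 CPM (3.77-fold, 3.34 to 4.23). In each of these 3 genes the 2 innermost distances stood above all others, and the 2 outermost were close together.

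Of all 38 members, 31 were at least 1.5-fold higher at 1 to 2 steps from the patch than at 8 steps or more, beside 26.1% of all genes, and 2 were at least 1.5-fold lower, beside 14.8%. Many sparse genes pass that size by counting noise in so small an area. Among genes with at least 20 CPM in both sections, 26 of 29 members were at least 1.5-fold higher, beside 7.27% of 7341 such genes, and the members' median ratio was 2.17 beside 0.963. By list the median ratio was 1.78 over the 16 enzymes and 2.83 over the 22 targets, beside 1.05 over all 14313 genes.

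Among the enzymes the largest ratios were those of Pfkp, the platelet form of phosphofructokinase (2.68-fold, 2.25 to 3.18), of Pgk1, phosphoglycerate kinase (2.39-fold, 2.24 to 2.54), and of Hk2, the inducible hexokinase (2.31-fold, 1.45 to 3.52, from 23 UMIs near the patch). Pgk1 was at 2071 CPM near the patch and 866.8 CPM at 8 steps or more. Among the targets, P4ha2, a subunit of collagen prolyl hydroxylase, had a ratio of 4.96 (3.69 to 6.54), and Car9, the membrane carbonic anhydrase that exports acid, 4.97 (2.76 to 8.40). Ankrd37 stood at 3.07-fold, Kdm3a, a histone demethylase, at 2.95-fold, Vegfa, the main vessel growth factor, at 2.85-fold and Higd1a, which acts on the respiratory chain, at 2.71-fold. Adm (13.4-fold, 5.18 to 31.0) and Egln3 (11.4-fold, 4.48 to 25.8) rested on 8 UMIs each near the patch.

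A few members did not share the profile. Stc1, a secreted glycoprotein, had 41.0 CPM near the patch against 31.9 CPM far from it (1.28-fold, 0.789 to 1.98). Its highest levels lay between, with 61.5 CPM (45.3 to 81.5) at 3 to 4 steps and 47.9 CPM (38.1 to 59.3) at 5 to 7 steps. Pfkfb4, a kinase and phosphatase that sets fructose 2,6-bisphosphate, had a ratio of 0.585 from 5 UMIs near the patch (0.189 to 1.38). Lox, the collagen cross-linking oxidase, had 1 UMI near the patch. The patch differed in other ways too. Summed neutrophil genes were at 3307 CPM in it, 1154 CPM at 1 to 2 steps and 95.8 CPM at 8 steps or more. Summed macrophage genes were at 1469, 1809 and 3694 CPM, and the median UMIs per spot were 2839, 6883 and 9953. These sums do not speak for each gene in them. The part of depth and of cell makeup in the levels around the patch was not tested.

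**Figure D2:**
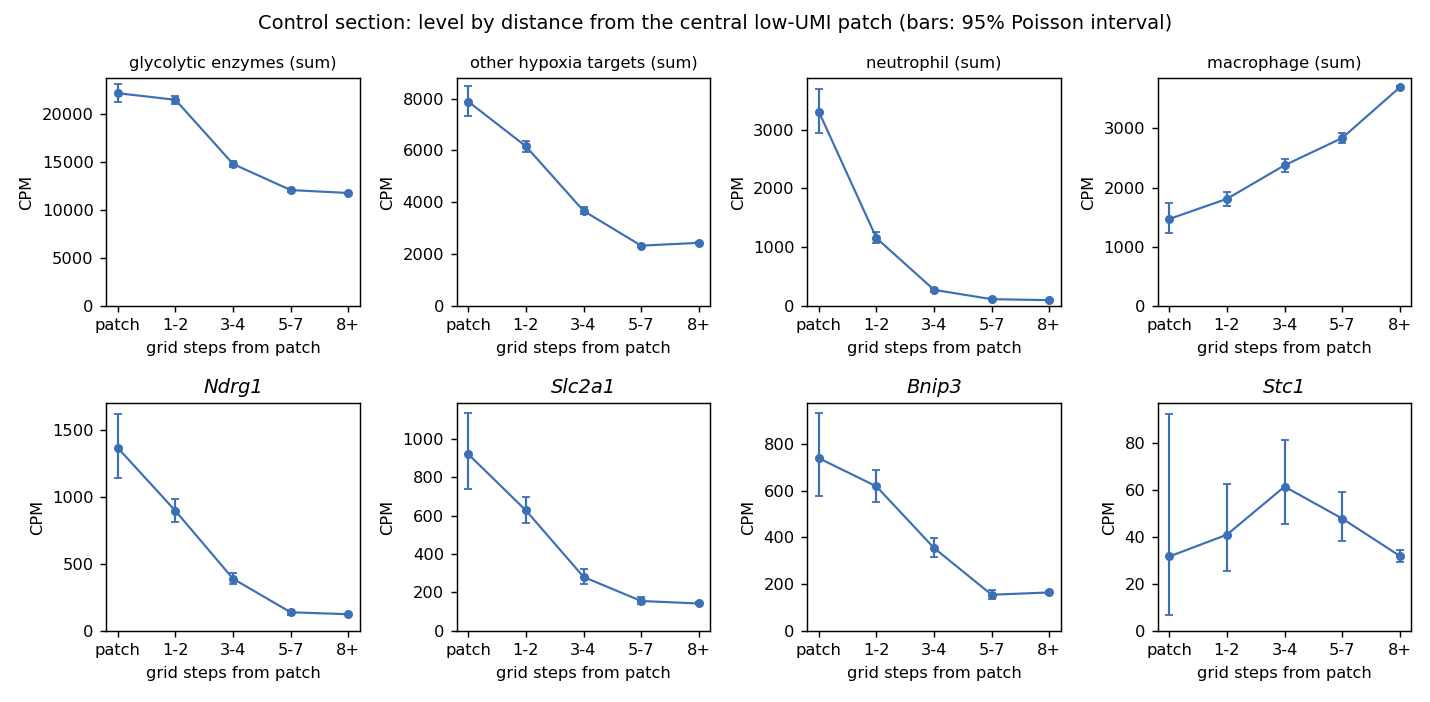
Levels in CPM in the control section by distance in grid steps from the central patch of 33 low-UMI spots, as sums over 4 gene lists (top) and for 4 members (bottom), with exact 95% Poisson intervals. The enzymes, the targets, the neutrophil genes, Ndrg1, Slc2a1 and Bnip3 are high in and near the patch, and the macrophage genes are low there. Stc1 is highest at 3 to 4 steps from the patch.

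The 10% of spots with the highest summed targets were then located in each section. These spots were picked by the targets themselves, so the target level in them is no finding, and they were 209 control and 190 rIL7 spots, with sums of at least 21 and 28 UMIs. Of the neighbors of such spots 42.5% and 42.3% were also in the highest 10%. The deepest ring held 38.3% of them in the control section and 40.0% under rIL7, beside 25.1% and 26.6% of all thinned spots. The outermost ring held 18.7% and 12.6%, beside 16.5% and 15.6% of all thinned spots. Connected groups of at least 5 such spots numbered 5 in control and 8 in rIL7 tissue. The largest control group had 80 spots, 76 of them within 4 steps of the low-UMI patch. The largest rIL7 group had 48 spots at 7 to 17 steps from the outline, and the next 2, with 30 and 15 spots, lay at 1 to 4 steps from it. Median UMIs per spot were 9478 in the highest 10% and 9888 in the rest of the control section, but 14633 and 12870 in the rIL7 section.

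The enzymes, which had no part in that choice, were higher in the same spots, with means of 97.8 against 57.8 UMIs in control tissue (ratio 1.69) and 105.6 against 56.2 UMIs in the rIL7 section (ratio 1.88). Pgk1 (ratios 2.22 and 2.36), Pfkp (2.12 and 2.48) and Hk2 (2.09 and 2.82) were again the highest of the 16, and Pfkfb4 the lowest (0.503 and 0.775). As a sum, neutrophil genes were 4.50 and 2.92 times as high in the highest 10% as elsewhere. No value is given for each gene, so the sum does not speak for each of them. Macrophage genes had ratios of 0.775 and 0.697, T cell genes 0.478 and 0.523, and proliferation genes 0.748 and 0.751. Endothelial genes, at 64 and 35 UMIs in those spots, had ratios of 0.853 and 0.494. The part of these genes in the members' levels was not tested.

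By distance from the outline, levels were read in 5 rings of 1 to 2, 3 to 4, 5 to 7, 8 to 11 and 12 or more grid steps. The deepest ring held the highest level of 28 of 38 members in the control section, where it did so for 32.7% of all genes, and of 30 of 38 in the rIL7 section, where it did so for 13.7%. It did so in both sections for 25 members. Most profiles dipped between, and 22 and 24 members were lowest in the rings of 3 to 7 steps, beside 35.3% and 25.7% of all genes. Slc2a1 ran through 160.6, 152.6, 132.8, 139.5 and 221.2 CPM from the outline inward in the control section and through 166.2, 142.4, 141.2, 165.6 and 233.4 CPM in the rIL7 section. Ndrg1 ran through 142.0, 126.6, 126.2, 133.9 and 243.4 CPM and through 265.6, 197.9, 174.2, 233.5 and 310.8 CPM. Both genes were thus lowest at 5 to 7 steps in both sections, and Ndrg1 was higher in rIL7 in all 5 rings. The deepest control ring also held 102 of the 137 control spots with at least 3 skeletal muscle UMIs. Muscle genes were at 191.2 CPM in that ring and 20.1 CPM in the outermost. No ring level is given without those spots, and their part in the ring levels was not tested.

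The deepest ring of the control section held the patch, which was defined after the maps had been seen. Levels were high in and around it, so leaving it out lowers the deep level by that choice. The values without it describe the remaining spots only. Without the patch and the spots within 4 steps of it, 417 spots of the deepest ring remained. Of the 38 members 10 were then highest in the deepest ring, beside 33.8% of all genes, and 20 in the outermost ring. The ratio of the deepest ring to the ring of 5 to 7 steps changed from 1.22 to 0.9404 for the summed targets and from 1.13 to 1.002 for the enzymes. In the rIL7 section, from which no bright area was left out, these ratios were 1.45 and 1.23. Each section was also divided into 4 quadrants, and the ratio for the targets was above 1 in 2 of 4 control quadrants (0.844 to 1.80 over the 4) and in 3 of 4 rIL7 quadrants (0.952 to 2.16). It was above 1 in all 4 quadrants for 3 of 38 control members, beside 8.64% of all genes, and for 8 of 38 rIL7 members, beside 5.27%.

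**Figure D3:**
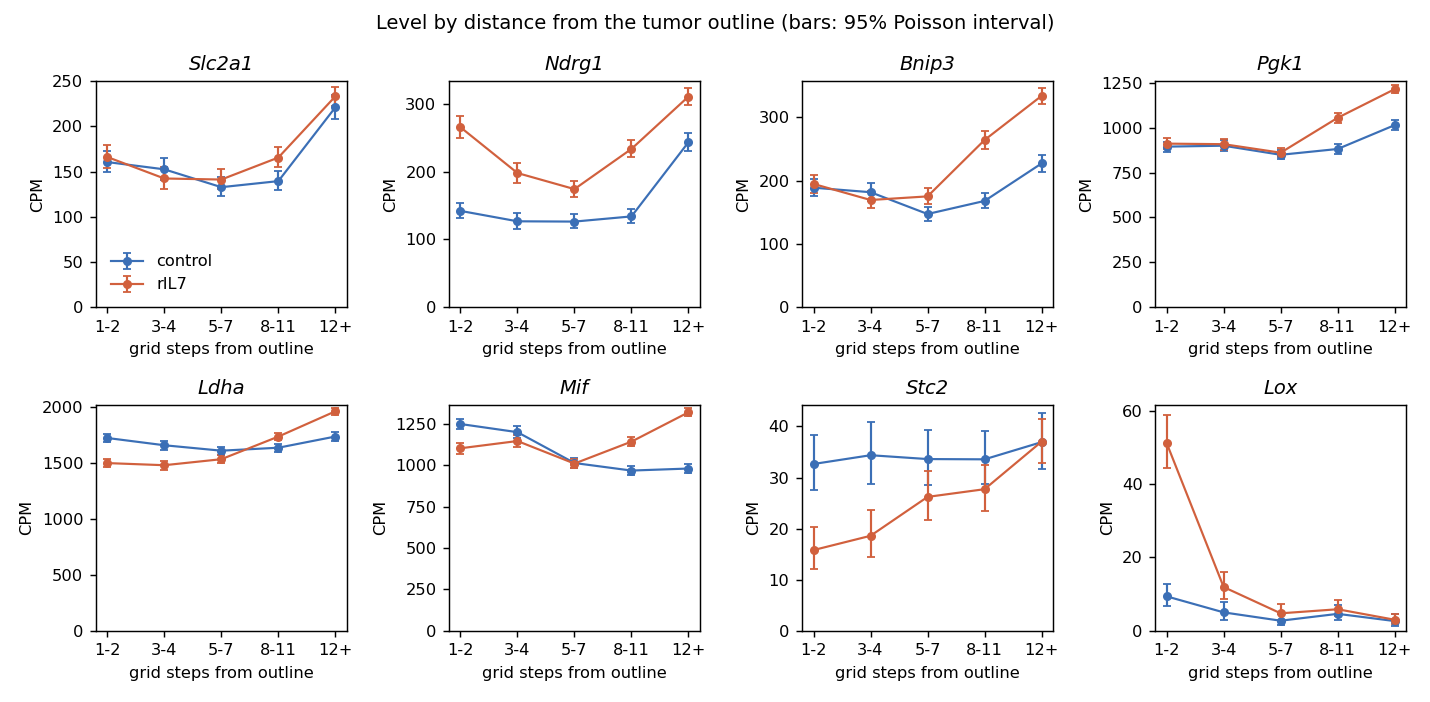
Levels in CPM of 8 members by ring of grid steps from the tumor outline, in the control (blue) and rIL7 (orange) section with exact 95% Poisson intervals. Slc2a1, Ndrg1, Bnip3 and Pgk1 are highest in the deepest ring in both sections, Mif and Ldha part toward the inside, Stc2 is low at the rIL7 outline, and Lox is high there.

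The members that lay at the edge, within 2 steps of the outline, were few. In the control section 0 of 38 were at least 1.5-fold higher in the interior, beside 7.62% of all genes, and 2 were at least 1.5-fold higher at the edge, beside 5.78%. In the rIL7 section 1 was at least 1.5-fold higher in the interior, beside 10.3%, and 2 at the edge, beside 14.7%. Lox was at 9.39 CPM at the control edge and 3.70 CPM in the control interior, a 2.54-fold difference (1.69 to 3.79). At the rIL7 edge it was at 51.2 CPM against 5.59 CPM inside, a 9.16-fold difference (7.27 to 11.6). Fibroblast genes, a usual source of Lox, summed to 3302 CPM in the outermost rIL7 ring and 2014 CPM at 5 to 7 steps. In the control section they summed to 1917 and 2061 CPM. Of these 6 genes 3 were higher at the rIL7 edge and 3 in the rIL7 interior, so the sum does not speak for each of them. Their part in the Lox level was not tested.

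Pfkfb3, the kinase that makes the activator of phosphofructokinase, was at 41.3 CPM at the rIL7 edge and 23.0 CPM inside (1.80-fold, 1.496 to 2.15), while the control section had 17.4 and 17.1 CPM. Car9 was at 9.84 and 6.31 CPM at the control edge and inside (1.56-fold, 1.08 to 2.23) and at 12.2 and 10.0 CPM in the rIL7 section. Stc2, a stanniocalcin also induced by endoplasmic reticulum stress, was the member at least 1.5-fold higher in an interior, with 29.3 CPM against 15.8 CPM at the rIL7 edge (1.85-fold, 1.43 to 2.45) and 34.6 against 32.7 CPM in the control section. Aldoc, the brain form of aldolase, was low inside in both sections, with interior over edge ratios of 0.772 and 0.770 whose intervals included 1.

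Smaller differences filled the rest of both lists. Over the 16 enzymes the median log2 ratio of interior to edge was -0.06 in control tissue (bounds -0.12 to 0.09) and 0.17 in the rIL7 section (0.10 to 0.24), and over all genes it was 0.05 and 0.04. Over the 22 targets it was 0.01 (-0.19 to 0.24) and 0.08 (-0.17 to 0.33). In the control section the enzymes with the highest ratios were Pfkfb4 at 1.16, Pfkp at 1.16 and Gpi1, glucose phosphate isomerase, at 1.08, and the low ones besides Aldoc were Hk2 at 0.888 and Eno1, enolase, at 0.906. In the rIL7 section Pfkl, the liver form of phosphofructokinase, had 1.27, Aldoa, the muscle form of aldolase, 1.24 and Hk1, the constitutive hexokinase, 1.16, against 0.772 for Pfkfb4. Among the targets Stc1 (1.27), Ddit4, an inhibitor of mTORC1 (1.22), and Kdm3a (1.201) led in the control section, and Egln3 (1.48, from 6 UMIs at the edge) and Bnip3 (1.31) followed Stc2 in the rIL7 section. Egln3 in control tissue (0.802) and Adm in the rIL7 section (0.765) had intervals that included 1.

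Over whole sections most members differed by less than 1.5-fold between the tumors. In direction 30 of 38 were higher in rIL7, beside 7098 of all 14313 genes. Some of the 30 had ratios close to 1, such as Gpi1 at 1.001 and Kdm3a at 1.002. With equal weight for each spot Gpi1, Pfkl, Tpi1, Pkm, Ldha, Slc2a1, Egln3 and Kdm3a were lower in rIL7, so the direction count depends on the weighting. Of the 38, 6 were at least 1.5-fold higher in rIL7, beside 7.72% of all genes, and 1 was at least 1.5-fold lower, beside 5.95%. When each spot counted equally, 3 were at least 1.5-fold higher. The median log2 ratio of rIL7 to control was 0.03 over the enzymes (bounds -0.004 to 0.07) and 0.21 over the targets (0.12 to 0.29), beside 0.00 over all genes. With equal weight for each spot these medians were -0.046 and 0.12, so the enzyme median changed sign with the weighting. Without the control patch and spots within 4 steps of it they were 0.077 and 0.30. That setting takes spots with high levels out of the control section alone, so higher ratios follow from the choice. As sums the enzymes were at 12157 CPM in control and 12551 CPM in rIL7 tissue, and the targets at 2571 and 2963 CPM. The quadrants overlapped in both, from 11447 to 13535 CPM and from 10926 to 13945 CPM for the enzymes, and from 2108 to 2869 CPM and from 2305 to 3401 CPM for the targets.

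**Figure D4:**
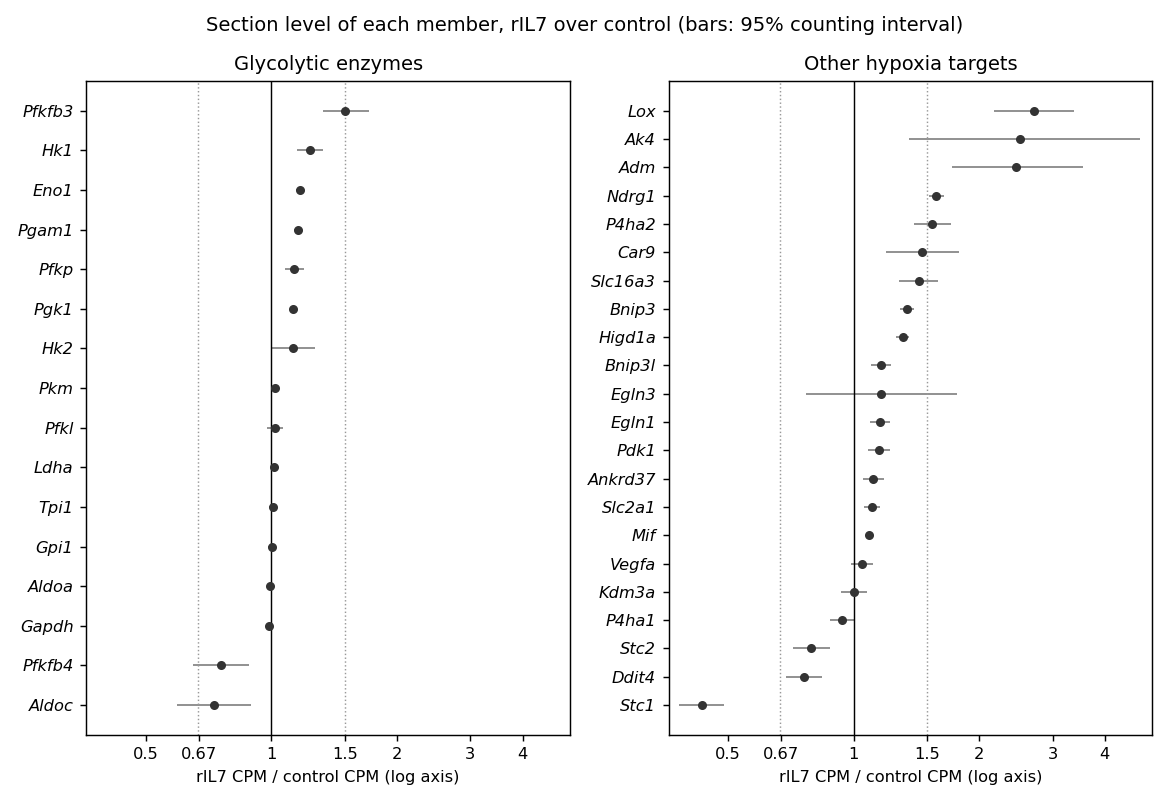
Ratio of the rIL7 level to the control level of each member on a log axis, with exact 95% counting intervals and dotted lines at 1.5-fold in either direction. Most enzymes lie close to 1, Pfkfb3 lies at 1.51, and among the targets Lox, Ak4, Adm, Ndrg1 and P4ha2 lie above 1.5 and Stc1 at 0.432.

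The first steps of glycolysis take glucose to triose phosphates. Hk1 was at 55.6 CPM in control tissue against 68.7 CPM in rIL7 tissue (1.24-fold, 1.15 to 1.33), and its control quadrants, at 53.7 to 60.2 CPM, all lay under the rIL7 quadrants, at 64.1 to 75.1 CPM. Hk2 was at 20.6 and 23.2 CPM. Gpi1 was at 643.4 and 644.4 CPM, Pfkl at 165.8 and 168.9 CPM, and Pfkp at 113.3 and 128.8 CPM. Of these, Hk1 alone had quadrants apart. Pfkfb3 (chromosome 2, 11471430 to 11554071, GRCm38) was at 17.2 CPM in control and 25.8 CPM in rIL7 tissue (1.51-fold, 1.33 to 1.71), with control quadrants from 10.8 to 19.6 CPM and rIL7 quadrants from 23.1 to 30.4 CPM. The quadrants of Pfkfb3 did not overlap, but its ratio was 1.34 over interior spots. Pfkfb4 was lower in rIL7 at 12.2 against 16.2 CPM (ratio 0.757), and the quadrants overlapped. Aldoa was at 1709 and 1698 CPM, Tpi1, triose phosphate isomerase, at 631.9 and 638.5 CPM, and Aldoc at 9.28 and 6.76 CPM (ratio 0.729, 0.593 to 0.895). For these the quadrants of the sections overlapped.

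The later steps yield pyruvate and lactate. Gapdh was at 2372 and 2344 CPM (ratio 0.988), Pgk1 at 909.1 and 1025 CPM (1.13-fold), Pgam1, phosphoglycerate mutase, at 581.4 and 672.2 CPM (1.16-fold). Pgam1 quadrants did not overlap, at 519.5 to 596.5 CPM and 620.5 to 726.2 CPM. Eno1 was at 659.4 and 770.7 CPM (1.17-fold, 1.14 to 1.19), and a near-identical copy, Eno1b, had 855 and 955 UMIs, so reads may have been split between them. Pkm, pyruvate kinase, was at 2583 and 2633 CPM and Ldha, the A subunit of lactate dehydrogenase, at 1670 and 1691 CPM. For these last 2 steps the levels of the sections were within 1.02-fold.

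None of the targets that move fuel and acid passed 1.5-fold. Slc2a1 was at 161.8 and 178.6 CPM (1.104-fold, 1.06 to 1.15), with overlapping quadrants and a ratio of 0.978 when each spot counted equally. Slc16a3, the lactate exporter MCT4, was at 24.4 and 35.0 CPM (1.43-fold, 1.29 to 1.59), with quadrants from 17.7 to 29.9 CPM and from 31.3 to 39.9 CPM. Pdk1, the kinase that shuts pyruvate dehydrogenase, was at 77.2 and 88.8 CPM and Car9 at 7.06 and 10.3 CPM (1.46-fold, 1.196 to 1.79). Slc16a3 was the one target whose quadrants lay apart in the upward direction. In all, 4 of 38 members had rIL7 quadrants wholly above the control quadrants, beside 9.74% of all genes, and 1 had them wholly below, beside 9.77%.

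None of the members of oxygen sensing and chromatin passed 1.5-fold. Egln1, the prolyl hydroxylase PHD2, was at 97.7 and 113.1 CPM (1.16-fold, 1.095 to 1.22) and Egln3, PHD3, at 1.87 and 2.18 CPM from 43 and 56 UMIs. Kdm3a was at 64.7 and 64.8 CPM and Ankrd37 at 92.8 and 103.5 CPM. The 2 members of stress and growth arrest differed in direction. Ddit4 was at 37.8 and 28.8 CPM (ratio 0.761, 0.689 to 0.840). Ndrg1 (chromosome 15, 66929318 to 66969641) was at 156.2 CPM in control tissue against 246.5 CPM in rIL7 tissue, a 1.58-fold difference (1.51 to 1.64). Its quadrants ran from 108.7 to 215.2 CPM and from 156.5 to 311.8 CPM and overlapped, and its ratio was 1.31 when each spot counted equally. Without the control patch and its surroundings the ratio was 1.97. Ndrg1 is high there and only control spots were left out, so that rise follows from the choice.

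Of the 4 mitochondrial members 1, the sparse Ak4, passed 1.5-fold. Bnip3 was at 182.8 and 244.9 CPM (1.34-fold, 1.29 to 1.39), its relative Bnip3l at 102.6 and 119.2 CPM, and Higd1a at 235.6 and 308.4 CPM (1.31-fold, 1.26 to 1.36). Ak4, a mitochondrial adenylate kinase, had 15 and 42 UMIs (2.50-fold, 1.36 to 4.85). The quadrants of all 4 genes overlapped between the sections.

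The secreted members differed in both directions. Vegfa was at 81.6 and 85.5 CPM and Mif, a cytokine, at 1073 and 1165 CPM. Adm, the vasodilator adrenomedullin, had 44 and 121 UMIs (2.45-fold, 1.72 to 3.55). Stc1 (chromosome 14, 69029289 to 69041401) was the member lowest in rIL7 relative to control, at 34.3 CPM in control and 14.8 CPM in rIL7 tissue, a 2.32-fold lower level (2.05 to 2.62). Its control quadrants ran from 25.9 to 41.2 CPM and its rIL7 quadrants from 8.197 to 20.7 CPM, so they did not overlap. Stc2 was at 34.2 and 27.1 CPM (ratio 0.791, 0.713 to 0.877).

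The collagen enzymes differed among themselves. P4ha1 was at 72.3 and 67.8 CPM (ratio 0.938), while P4ha2 was at 25.8 and 39.8 CPM (1.54-fold, 1.39 to 1.71), or 1.36-fold when each spot counted equally. Lox had 111 and 336 UMIs, or 4.84 and 13.1 CPM (2.70-fold, 2.17 to 3.38), and 1.51-fold over interior spots alone. Both quadrant ranges overlapped, for Lox from 3.10 to 6.61 CPM and from 5.86 to 20.9 CPM.

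Paired forms of an enzyme were compared by the share of the pair's UMIs, with exact Clopper-Pearson intervals. P4ha2 made up 26.3% of the P4ha1 and P4ha2 UMIs in control tissue (24.5% to 28.2%) and 37.0% in the rIL7 section (35.2% to 38.8%). The P4ha2 share was 25.0% and 30.1% at 5 to 7 steps from the outline and 31.5% and 40.8% in the deepest ring. Pfkfb3 made up 51.5% of its pair with Pfkfb4 in control tissue (47.9% to 55.1%) and 67.9% in the rIL7 section (64.8% to 70.8%). Stc1 made up 50.03% of the stanniocalcin UMIs in control tissue (47.5% to 52.5%) and 35.3% in the rIL7 section (32.5% to 38.3%). Smaller shifts were seen in 3 more pairs. Bnip3 was 64.1% (62.9% to 65.2%) and 67.3% (66.3% to 68.2%) of its pair with Bnip3l. Pfkp was 40.6% (39.4% to 41.8%) and 43.3% (42.1% to 44.4%) of its pair with Pfkl. Aldoc was 0.540% (0.470% to 0.617%) and 0.397% (0.340% to 0.460%) of its pair with Aldoa. The counting intervals of these 6 pairs did not overlap between the sections. Those of the other 2 did, with Hk2 at 27.0% and 25.2% of the hexokinase pair and Egln3 at 1.88% and 1.89% of its pair with Egln1. These intervals cover counting error within 1 section and are narrow where UMIs are many. How often other gene pairs differ in this way is not given, nor are quadrant ranges of the shares. The shifts can therefore not be called particular to these pairs or set against the spread within a tumor.

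Spot by spot, the enzymes and the targets went together. The Spearman rho of their sums over thinned spots was 0.556 in control tissue (0.493 to 0.694 over the 4 quadrants) and 0.760 in the rIL7 section (0.609 to 0.811). Neighboring spots are not independent, so no p-value is given, and the quadrant ranges overlapped. The correlation was 0.497 without the control patch and its surroundings. Within the 5 rings it was 0.478 to 0.632 in the control section and 0.668 to 0.767 in the rIL7 section. Mif supplies many of the target UMIs, and without it rho was 0.531 and 0.717. UMIs per spot before thinning had rho with the targets of 0.05 and 0.26.

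Pgk1 was the member with the highest rho against the summed targets, at 0.410 in control against 0.603 in rIL7 tissue. Aldoa followed with 0.384 and 0.553, Ldha with 0.378 and 0.582, and Bnip3, with its own UMIs left out of the sum, with 0.369 and 0.488. For Pkm the values were 0.343 and 0.601. The median over the 13 enzymes with at least 20 CPM was 0.264 and 0.406 and over the 16 such targets 0.158 and 0.253. Over 7312 other genes with that minimum it was -0.01 in each section. Those genes are not matched to the members for level, and rho tends toward 0 where UMIs are few. Lox, Pfkfb4 and Aldoc lay between -0.01 and 0.06 in both sections. They had a UMI in at most 7.9% of thinned spots, so a rho near 0 says little about them. Adm, Ak4 and Egln3 had a UMI in under 2% of thinned spots, which leaves their rho without content.

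**Figure D5:**
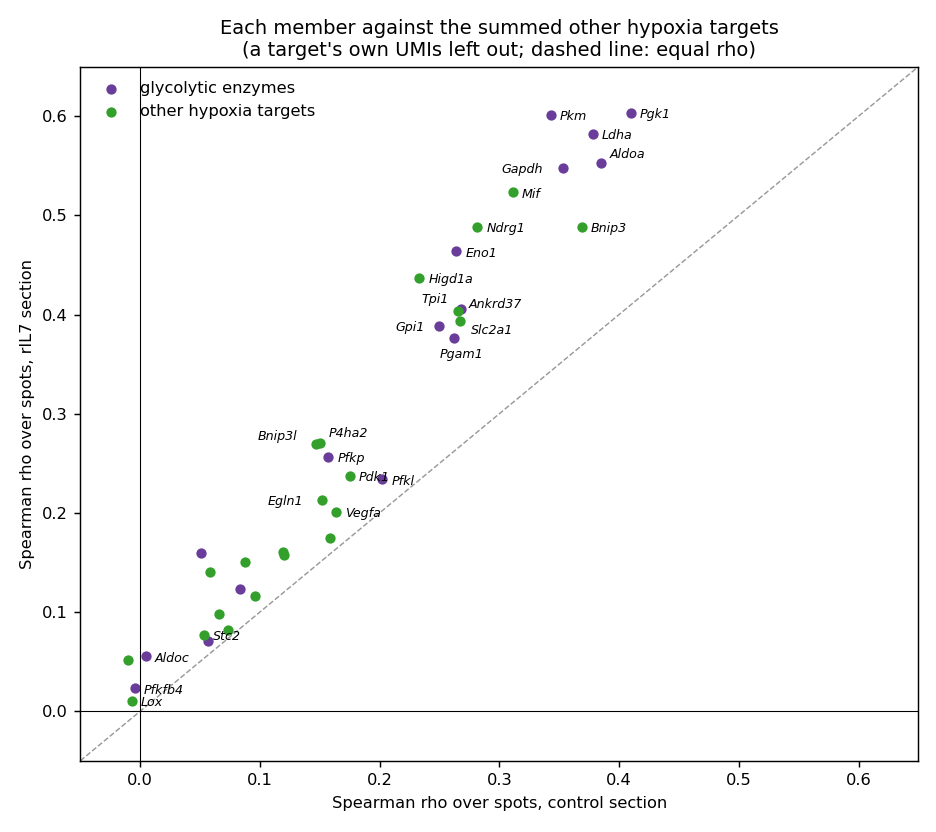
Spearman rho over thinned spots of each member with the summed 22 other hypoxia targets, in the control section (horizontal) against the rIL7 section (vertical), enzymes in purple and targets in green, with a target's own UMIs left out. Pgk1, Pkm, Ldha, Aldoa and Gapdh lie farthest out, and most members lie above the line of equal rho. Lox, Pfkfb4 and Aldoc, which are sparse, lie near 0 in both.

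Outside the members, the 10 genes whose lower rho of both sections was highest were, in order, Mt1, Fam162a, Bsg, Mmp12, Eno2, Ero1l, Tnfrsf9, Vim, Lgals3 and Fau. Mt1, a metallothionein, had rho of 0.302 and 0.652, and it was at 889.7 CPM in control tissue against 1864 CPM in rIL7 tissue. Bsg, the chaperone of lactate transporters, had 0.261 and 0.350. Fam162a (0.294 and 0.431), Eno2 (0.249 and 0.359) and Ero1l (0.233 and 0.423) also belong to a further list of hypoxia pathway genes. Tnfrsf9, the costimulatory receptor 4-1BB, had 0.229 and 0.347, whereas the summed T cell genes had -0.07 and -0.22. The 5 genes at the other end were Cd74, Lyz2, H2-Ab1, H2-Aa and Cfl1. Lyz2, lysozyme of myeloid cells, had -0.157 and -0.421, and Cd74, the invariant chain of class II antigen presentation, had -0.168 and -0.287.

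Summed gene lists were read the same way. The macrophage genes had rho of -0.168 and -0.446 with the targets and -0.330 and -0.531 with the enzymes. The control value with the targets was -0.088 without the patch and its surroundings, and by ring it was -0.377 in the deepest ring and -0.004 to -0.164 in the others. In the rIL7 rings it ran from -0.147 in the deepest to -0.572 in the outermost. Neutrophil genes had 0.147 and 0.240 with the targets, and the control value was 0.05 without the patch and its surroundings. The further hypoxia pathway list, 20 genes, had 0.378 and 0.563. Proliferation genes had -0.165 and -0.197, and genes of the TCA cycle, the oxidative end of glucose use, -0.108 and -0.133. The summed HIF regulators, a mixed list that runs from Hif1a and Arnt to Vhl and Egln2, had 0.039 and 0.015. They held a mean of 1.23 and 1.34 UMIs per thinned spot, so a rho near 0 says little about them.

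Of the 6 HIF regulators, Hif1a was at least 1.5-fold higher in rIL7 and none at least 1.5-fold lower. Hif1a, the oxygen-regulated subunit, was at 50.2 CPM in control and 77.7 CPM in rIL7 tissue (1.55-fold, 1.44 to 1.66). It was at 120.3 CPM in the outermost rIL7 ring and 62.8 CPM at 5 to 7 steps, against 46.1 and 46.3 CPM in the control section. In the further pathway list 1 of 20 genes was at least 1.5-fold higher, Angptl4, a secreted inhibitor of lipoprotein lipase, at 105.3 and 158.2 CPM (1.503-fold, 1.43 to 1.58), and 0 were at least 1.5-fold lower. None of 8 TCA cycle genes and 10 nuclear genes of the respiratory chain passed 1.5-fold in either direction. Of 10 genes of the mitochondrial genome, 8 were at least 1.5-fold lower in rIL7, beside 5.95% of all genes. For 6 the rIL7 quadrants lay wholly below the control quadrants, beside 9.77%. The quadrants of their summed levels, 2527 and 1521 CPM, overlapped. Within the control section mitochondrial UMIs ran from 0.32% in the outermost ring to 0.16% in the deepest. The cause of the difference between the sections was not tested.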

How the data were processed

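Spatial gene expression was analysed in 1 control and 1 rIL7 Visium section. The authors cut embedded, frozen tissue and counted genes against mm10 (GRCm38), with Space Ranger 1.1.0 per the submitters' processing notes, and deposited unnormalized UMI counts per gene and spot. Because of 3' capture, each molecule is counted once whatever its length. The authors' spot positions were used, and image scale factors were not.

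Spots with over 200 genes and under 10% mitochondrial UMIs were kept, as in the study's methods. Counts were summed per section, ring or quadrant (split at the median array row and column) and divided by their total. Ratios have exact Clopper-Pearson and levels exact Poisson 95% intervals, and bounds of a median are the medians of the genes' bounds. A gene at 0 was set to 3 UMIs in ratios. With 1 section per group no test was run, and genes are set apart by size (1.5-fold). The sections shared 1702 array barcodes, which name positions and not cells. Of 2 features named Aldoa, the second held 0 and 2 UMIs and was left out.

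All members are named. In each list the 3 highest and 3 lowest ratios were described in full, and of other genes the 10 most and 5 least like the summed targets among those of at least 20 CPM. The members and lists were chosen with earlier results of these data known, and the low-UMI patch after the maps were seen. Genes were matched to GRCm38.p6 coordinates by symbol. The scripts were tested on simulated data. Alternatives were TMM (edgeR 4.0.16) and median-of-ratios (DESeq2 1.42.0) scaling and other filters, weights, edges and depths. Python 3.11.15 with numpy 2.4.6, scipy 1.17.1 and pandas 2.3.3 and R 4.3.3 were used.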

Additional observations from a re-analysis of the deposited data

Results flagged for a closer look

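In 5 of the 38 members the interior and the edge differed in opposite directions in the sections, with both counting intervals away from a ratio of 1. Of all 14313 genes 1.25% met the same rule, and of the 7341 with at least 20 CPM, a minimum all 5 members pass, 1.93% did. Counting intervals narrow as counts rise, and Eno1, Mif, Ldha and Gapdh were at 659.4 CPM or more in control tissue. These shares are thus not matched for level, and 5 of 38 cannot be read as particular to the members. The difference between the sections was not tested, since each holds 1 tumor. Eno1 had a log2 ratio of interior to edge of -0.14 in control tissue against 0.20 in rIL7 tissue, which differ by 0.34. Mif went from -0.28 to 0.10 (0.38), Ldha from -0.05 to 0.21 (0.26) and Gapdh from -0.06 to 0.15 (0.21). Ndrg1 differed the other way, with 0.17 in control tissue against -0.13 in rIL7 tissue (-0.29). Without the low-UMI patch and spots within 4 steps of it the control value of Ndrg1 was -0.24 (-0.37 to -0.11), the same direction as in rIL7 tissue, while the other 4 members kept theirs. Ndrg1 was high in the spots left out, so a lower control value follows from that choice.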

How the results depend on the processing

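Of the 89 values recomputed under another choice, 78 stayed within their counting or quadrant bounds (counts within 1.5 times). With equal weight for each spot, the section median of the enzymes was -0.0459, that of the targets 0.12, the count of members at least 1.5-fold higher in rIL7 was 3 (Lox, Ak4 and Adm), and the interior over edge median of the enzymes was 0.0452 in control and 0.26 in rIL7 tissue. Over interior spots only, the section median of the enzymes was 0.0804. Without the control low-UMI patch and spots within 4 steps of it, a choice made after seeing the data, the section medians were 0.0770 and 0.30 and the control interior over edge median of the targets was -0.20. That setting gave 8 members at least 1.5-fold higher, with Car9 at 1.75-fold and Slc16a3 at 1.52-fold added and Adm at 3.76-fold. It takes spots with high levels out of the control interior alone. Higher ratios of rIL7 to control and a lower control interior thus follow from the choice. The spot correlation of both lists was 0.459 in the control section after thinning to 3000 UMIs and 0.844 in the rIL7 section without thinning. The alternatives without muscle spots and without Mif were also chosen after seeing the data. The causes were not tested. TMM and median-of-ratios scaling moved all genes by under 0.01 on the log2 scale. No paired analysis was possible because each group holds 1 section. Depth limits Ak4, Egln3 and Adm most.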
